A study of Homo sapiens with 20 samples.

Results

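The genes described are the enzymes that make cholesterol and fatty acids, with the regulators that set their transcription. They are 29 of the 24222 entries of a count table, chosen by symbol: 18 enzymes of the sterol branch, 4 genes of control and sterol transport, and 7 genes of the fatty acid branch. All 29 were found, each as 1 RefSeq entry, and all 29 passed the filters on low counts of the tests below. In 28 of them every line had at least 10 counts. The exception was FADS1, with 2 counts in the line NOZ. The libraries are bulk RNA, so fewer expressing cells and less RNA per cell cannot be told apart.

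The study sequenced polyadenylated RNA from 20 established cell lines of human biliary tract cancers. Each line gave 1 library, and the labels give each line's anatomical site and origin. There were 7 gallbladder cancer lines (TGBC2TKB, TGBC14TKB, SNU-308, OCUG-1, NOZ, Mz-ChA-2 and G415), 5 extrahepatic bile duct lines (EGI-1, Sk-ChA-1, SNU-1196, SNU-245 and TFK-1), 4 intrahepatic bile duct lines (HuCCT1, HuH28, SNU-1079 and TKKK) and 3 lines from the ampulla of Vater (SNU-478, SNU-869 and TGBC18TKB). The labels of OZ give both the extrahepatic and the intrahepatic site, so it entered no site comparison and 19 lines remained there. By origin, 13 lines came from primary tumours and 7 from metastatic material. Of the 7, 6 were from ascites (G415, NOZ, OCUG-1, HuCCT1, Sk-ChA-1 and OZ) and 1, Mz-ChA-2, from a liver metastasis. Site and origin were not balanced, since all 3 ampullary lines were primary. All lines were kept in 1 serum-containing medium (Dulbecco's modified Eagle medium with fetal bovine serum, HEPES, penicillin and streptomycin), and the labels name no treatment or engineered change. A line is the replicate, so the spread within a site is a spread between lines and not a culture error.

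Total counts ran from 10469013 in SNU-245 to 15414668 in TFK-1. Levels are given in CPM, the usual rescaling of a gene's count to a common library size, here with library sizes adjusted by TMM, edgeR's correction for composition. Markers of bile duct epithelium were checked against the labels. The summed CPM of 7 such markers had a median of 6880 and was lowest in HuH28 at 331, where EPCAM was at 0.257 and KRT19 at 1.03 CPM. HuH28 also had the highest sum of 6 fibroblast markers (8770 CPM, median 86.5), and Mz-ChA-2 the highest sum of 6 hepatocyte markers (5560 CPM, median 67.3), with ALB at 9.41 CPM. The summed level of 5 immune markers ran from 12.4 to 3100 CPM (SNU-245, of which LYZ gave 3030), with PTPRC at 0 counts in 14 lines and at most 1.32 CPM. The 4 endothelial markers summed to at most 56.2 CPM. Whether these differences take part in the values below was not tested.

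Cholesterol is built from acetyl-CoA through mevalonate and the isoprenoid farnesyl diphosphate to squalene, which is closed to lanosterol and then trimmed and reduced. When membranes of the endoplasmic reticulum are poor in sterol, the escort SCAP carries the SREBP transcription factors to the Golgi, where proteases release their active part, and INSIG proteins hold the complex back when sterol is plentiful. SREBF2 encodes the SREBP that drives mainly the sterol genes, and SREBF1 encodes forms that drive mainly the fatty acid genes. Bile duct cells handle cholesterol also from bile, which the liver loads with it.

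Promoters of the members that moved most closely with the rest of their branch are shown first, because a shared pattern across lines invites a look at the sequence the genes start from. Each window runs from 250 bases before to 50 bases after a RefSeq transcript start (GRCh38.p14) and is written 5′ to 3′ on the gene's strand. The 3 sterol enzymes are MSMO1 (chr4:165327419-165327718, plus strand), HSD17B7 (chr1:162790452-162790751, plus strand) and HMGCS1 (chr5:43313363-43313662, minus strand). The 3 fatty acid genes are FADS1 (chr11:61816954-61817253, minus strand), FADS2 (chr11:61815953-61816252, plus strand) and LPIN1 (chr2:11746382-11746681, plus strand). PMVK (chr1:154936670-154936969, minus strand) was added after its values were seen, as the sterol enzyme that did not move with the others. Capitals mark CCAAT on either strand (CCAAT or ATTGG), the box bound by the factor NF-Y, a partner of SREBP at many lipid genes.
MSMO1: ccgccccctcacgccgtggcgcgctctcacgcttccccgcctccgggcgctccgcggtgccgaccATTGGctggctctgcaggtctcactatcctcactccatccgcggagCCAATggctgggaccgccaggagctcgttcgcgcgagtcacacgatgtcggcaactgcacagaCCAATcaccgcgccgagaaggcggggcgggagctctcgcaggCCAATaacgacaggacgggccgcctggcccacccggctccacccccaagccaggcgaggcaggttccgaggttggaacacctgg
HSD17B7: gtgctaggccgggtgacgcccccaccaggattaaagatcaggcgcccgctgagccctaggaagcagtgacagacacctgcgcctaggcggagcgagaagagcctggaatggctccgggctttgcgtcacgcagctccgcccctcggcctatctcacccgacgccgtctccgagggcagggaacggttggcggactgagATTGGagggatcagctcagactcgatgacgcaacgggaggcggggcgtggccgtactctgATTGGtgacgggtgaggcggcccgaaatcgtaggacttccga
HMGCS1: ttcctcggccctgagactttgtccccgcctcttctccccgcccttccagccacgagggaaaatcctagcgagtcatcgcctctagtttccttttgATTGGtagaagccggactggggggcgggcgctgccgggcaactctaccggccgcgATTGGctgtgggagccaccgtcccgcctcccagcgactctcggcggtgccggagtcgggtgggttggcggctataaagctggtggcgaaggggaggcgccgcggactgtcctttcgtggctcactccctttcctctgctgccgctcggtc
FADS1: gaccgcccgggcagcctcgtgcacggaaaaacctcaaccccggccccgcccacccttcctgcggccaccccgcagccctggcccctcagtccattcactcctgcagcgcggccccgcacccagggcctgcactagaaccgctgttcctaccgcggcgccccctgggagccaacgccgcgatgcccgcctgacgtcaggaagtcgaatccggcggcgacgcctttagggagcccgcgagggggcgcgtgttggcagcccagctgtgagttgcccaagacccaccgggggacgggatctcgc
FADS2: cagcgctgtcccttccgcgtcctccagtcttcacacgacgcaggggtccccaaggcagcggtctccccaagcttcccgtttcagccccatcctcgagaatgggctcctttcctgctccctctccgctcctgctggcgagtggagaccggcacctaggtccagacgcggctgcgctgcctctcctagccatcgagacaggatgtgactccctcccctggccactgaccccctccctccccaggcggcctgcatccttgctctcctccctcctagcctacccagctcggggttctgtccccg
LPIN1: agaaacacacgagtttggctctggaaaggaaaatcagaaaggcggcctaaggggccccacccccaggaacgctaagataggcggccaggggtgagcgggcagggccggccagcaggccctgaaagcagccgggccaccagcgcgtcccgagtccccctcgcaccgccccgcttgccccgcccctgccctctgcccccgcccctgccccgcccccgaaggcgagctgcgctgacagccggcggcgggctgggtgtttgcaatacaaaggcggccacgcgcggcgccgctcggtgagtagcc
PMVK: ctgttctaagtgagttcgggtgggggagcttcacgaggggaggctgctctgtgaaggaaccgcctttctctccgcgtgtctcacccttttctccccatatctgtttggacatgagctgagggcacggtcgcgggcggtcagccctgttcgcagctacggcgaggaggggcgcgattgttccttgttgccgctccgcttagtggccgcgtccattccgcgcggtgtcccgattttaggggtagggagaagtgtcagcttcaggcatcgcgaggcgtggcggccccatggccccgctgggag

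The window of MSMO1 held 4 CCAAT boxes, and those of HSD17B7 and HMGCS1 held 2 each. The windows shown for FADS1, FADS2, LPIN1 and PMVK held 0. The FADS2 window shown is 1 of 2 listed for that gene. By its coordinates it lies downstream of the FADS1 start, on the other strand. The other FADS2 window held 1 CCAAT, so the 0 belongs to the window shown and not to the gene. Of the 29 members, 25 had an entry in the promoter table, and ACAT2, FDFT1, SQLE and FASN had none. At least 1 CCAAT stood in a window of 19 of these 25 genes (76%), and in 13 of the 15 sterol enzymes with an entry, the others being PMVK and CYP51A1. Over all 27305 genes in the table the share was 39.7%, and over the 15842 coding genes 42.1%.

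Other motifs were counted the same way on both strands. GGGCGG (or CCGCCC), the core of the GC box bound by Sp1, was present in 24 of 25 members against 48.3% of all genes and 64.3% of coding genes, the gene without it being NSDHL. The printed windows of MSMO1, HSD17B7 and HMGCS1 held 33, 29 and 28 CG dinucleotides, and those of FADS1, LPIN1, PMVK and FADS2 held 32, 29, 27 and 18, where the median coding gene held 21. The 18 belongs to the FADS2 window shown, which held 0 GGGCGG, whereas the other FADS2 window held 1. TCACNCCAC (or GTGGNGTGA), the classical sterol regulatory element, was found in 1 member, SREBF2 itself, against 1.39% of all genes. CACGTG, an E-box, was found in 3 members (INSIG1, LSS and SC5D), 12% of them, against 8.77% of all genes. None of the 4 motifs contains another. A match is a match of letters only, and the windows leave out more distant sequence.

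The enzymes of the first steps, from acetyl-CoA to farnesyl diphosphate, differed between lines by 3.36-fold to 28.6-fold. HMGCS1, which joins acetoacetyl-CoA with acetyl-CoA, had the widest range of the sterol branch. It was lowest in SNU-308 at 47.6 CPM, had a median of 179 CPM and reached 1360 CPM in TFK-1. TFK-1 stood 2.75-fold above the next line, TGBC2TKB at 495 CPM, so much of that width was 1 line, and between the second lowest and the second highest line the fold was 7.88. FDPS, which makes farnesyl diphosphate, was the narrowest member of all, from 95.8 CPM in Sk-ChA-1 through a median of 202 CPM to 322 CPM in SNU-1196. Its range was smaller than that of all but 13.1% of the 11548 genes with a median of at least 5 CPM.

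ACAT2, the cytosolic thiolase that makes acetoacetyl-CoA, ran from 12.2 CPM in TGBC18TKB through 77.9 to 159 CPM in TFK-1. IDI1, the isopentenyl diphosphate isomerase, ran from 26.8 CPM in TGBC18TKB through 104 to 317 CPM in TFK-1. MVD, the decarboxylase, was lowest in NOZ (24.7 CPM) and highest in Mz-ChA-2 (179 CPM, median 60.9). TFK-1 was thus the highest line for HMGCS1, ACAT2 and IDI1, and TGBC18TKB the lowest for ACAT2 and IDI1. Of the kinases, MVK ran from 9.99 CPM in Sk-ChA-1 through 24.4 to 42.8 CPM in OZ. PMVK ran from 6.77 CPM in Mz-ChA-2 through 28.7 to 50.6 CPM in OCUG-1, and its lowest line was the highest for MVD. In the GENCODE v29 annotation 69.6% of the exon bases of ACAT2 also lie in genes on the opposite strand (SOD2 and TCP1), and 28.9% of those of FDPS in RUSC1-AS1. The share on the opposite strand was 19.9% for HMGCS1 (AC114947.2) and 10.6% for LSS. In every other member 7.08% or less was shared, on either strand. Whether counting used the strand is not stated in the labels, so these levels may hold reads of the neighbours.

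From squalene to cholesterol the 11 enzymes had ranges of 4.0-fold to 16.3-fold. SC5D, the sterol C5 desaturase, was lowest in NOZ (20.7 CPM), had a median of 83.9 CPM and was highest in TKKK (337 CPM) and HuH28 (313 CPM), both intrahepatic. TM7SF2, a sterol C14 reductase, was lowest in G415 (6.23 CPM) and HuH28 (6.76 CPM), with a median of 26.6 CPM, and was highest in TKKK (101 CPM). HuH28 was therefore near the top for one late enzyme and near the bottom for another. LSS, which closes squalene epoxide to lanosterol, ran from 14.5 CPM in SNU-308 through 96.4 to 208 CPM in Mz-ChA-2, and SNU-308 and TGBC18TKB (21.6 CPM) stood below every other line. EBP, the sterol isomerase, ran from 23.5 CPM in SNU-308 through 81.9 to 295 CPM in HuCCT1, with OZ at 268 CPM.

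SQLE, the squalene epoxidase, ran from 31.3 CPM in TGBC18TKB through 173 to 341 CPM in SNU-1196, and FDFT1, the squalene synthase, from 73.9 CPM in TGBC18TKB through 226 to 494 CPM in SNU-245. CYP51A1, the lanosterol demethylase, ran from 52.7 CPM in TGBC14TKB through 161 to 490 CPM in SNU-478. MSMO1, the methylsterol oxidase, ran from 33.7 CPM in NOZ through 172 to 346 CPM in SNU-869. No single line was lowest or highest throughout. DHCR7, which makes the last reduction of one arm, ran from 41.7 CPM in TGBC18TKB through 181 to 478 CPM in SNU-1079, a line above the median for 3 of the 18 sterol enzymes. The narrowest late enzymes were NSDHL, a sterol dehydrogenase, and HSD17B7, the partner ketoreductase. NSDHL ran from 26.0 CPM in SNU-308 through 42.3 to 104 CPM in HuCCT1. HSD17B7 ran from 11 CPM in TGBC14TKB through 19.8 to 44.8 CPM in Mz-ChA-2.

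Of the regulators, SREBF2 and SREBF1 had narrow ranges, of 4.52-fold and 4.54-fold. SREBF2 ran from 118 CPM in NOZ through 296 to 535 CPM in SNU-245, and its entry carries a non-coding RefSeq identifier of that gene. SREBF1 ran from 91.0 CPM in SNU-869 through 225 to 413 CPM in SNU-1079. The 2 extremes of SREBF1 were therefore not those of SREBF2, for which SNU-1079 was second lowest at 127 CPM. INSIG1, which retains the SREBP complex and is itself a SREBP target, ran from 26.3 CPM in TGBC18TKB through 138 to 447 CPM in G415. STARD4, a carrier of cholesterol between membranes, ran from 2.61 CPM in TGBC18TKB through 25.7 to 46.8 CPM in SNU-245.

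FADS1, the delta-5 desaturase of polyunsaturated fatty acids, had the widest range of the 29 genes. It was at 0.157 CPM in NOZ (2 counts, exact Poisson 95% interval 0.019 to 0.568 CPM, counting error only) and at 1.52 CPM in SNU-1196 (20 counts, interval 0.928 to 2.35 CPM). The next line was TGBC18TKB at 20.7 CPM, the median was 129 CPM, and the highest were G415 (497 CPM) and TFK-1 (512 CPM). NOZ and SNU-1196 thus stood apart from the other 18 lines, SNU-1196 by 13.6-fold from the nearest.

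FADS2, the delta-6 desaturase whose gene lies beside FADS1 on the opposite strand, was lowest in TGBC18TKB (3.52 CPM), NOZ (4.4 CPM), SNU-245 (5.97 CPM) and SNU-1196 (6.0 CPM). Its median was 19.1 CPM, and it was highest in TGBC14TKB (217 CPM) and HuH28 (437 CPM), the latter 22.9-fold above the median. HuH28 held more FADS2 than FADS1 counts (5107 against 4048), as did NOZ (56 against 2) and SNU-1196 (79 against 20), and in every other line FADS1 had more. Over 20 lines log2 levels of FADS1 and FADS2 correlated at Pearson r = 0.67 and Spearman rho = 0.86, and at r = 0.77 without NOZ and SNU-1196. As the plot of the FADS locus shows, FEN1 and TMEM258 did not share the low values. FEN1 was at 170 CPM in NOZ and 174 CPM in SNU-1196, TMEM258 at 57.4 and 87.7 CPM, while FADS3 was at 12.3 and 28.1 CPM, with a lowest value of 11.7 CPM in Mz-ChA-2.

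**Figure D1:**
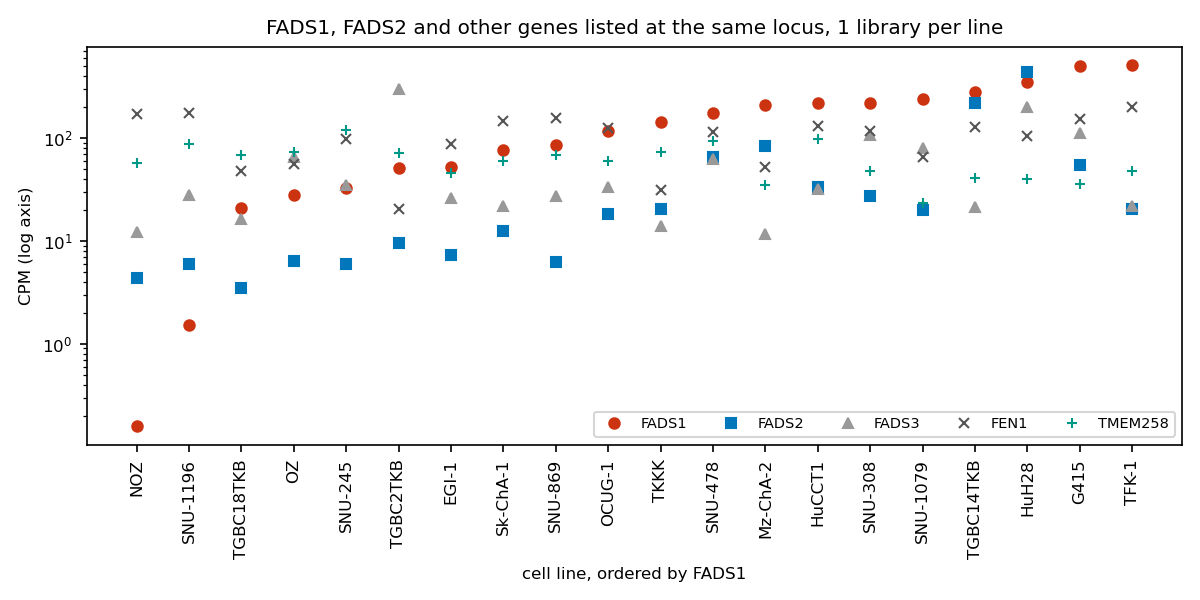
CPM on a log axis (1 library per line) of FADS1, FADS2 and 3 other genes of the locus, FADS3, FEN1 and TMEM258, in 20 lines ordered by FADS1. FADS1 drops to 0.157 CPM in NOZ and 1.52 CPM in SNU-1196 while FEN1 stands at 170 and 174 CPM in the same lines.

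The enzymes that build and desaturate saturated chains followed other lines. FASN, the fatty acid synthase, was lowest in Sk-ChA-1 (162 CPM), had a median of 493 CPM and was highest in SNU-869 (2080 CPM), TFK-1 (1520 CPM) and SNU-1196 (1180 CPM). ACACA, the carboxylase that makes malonyl-CoA, ran from 71.9 CPM in OZ through 177 to 611 CPM in SNU-869, followed by TKKK at 519 CPM. SNU-869 was highest for both and lowest for SREBF1. The correlation of FASN with ACACA (r = 0.43, rho = 0.34) rested on 2 lines, since it was 0.04 without SNU-869 and TFK-1.

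ELOVL6, which lengthens palmitate, ran from 17.8 CPM in TKKK through 50.6 to 183 CPM in OCUG-1. SCD, the stearoyl-CoA desaturase, was the narrowest of the branch, from 482 CPM in SNU-308 through 1340 to 2960 CPM in TGBC2TKB. LPIN1, a phosphatidate phosphatase that also acts in the nucleus, ran from 12.6 CPM in SNU-245 through 55.1 to 162 CPM in G415. The 7 genes had 7 different lowest lines, and SNU-869 alone was highest for more than 1 of them. The heat map of the 29 genes sets these values side by side.

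**Figure D2:**
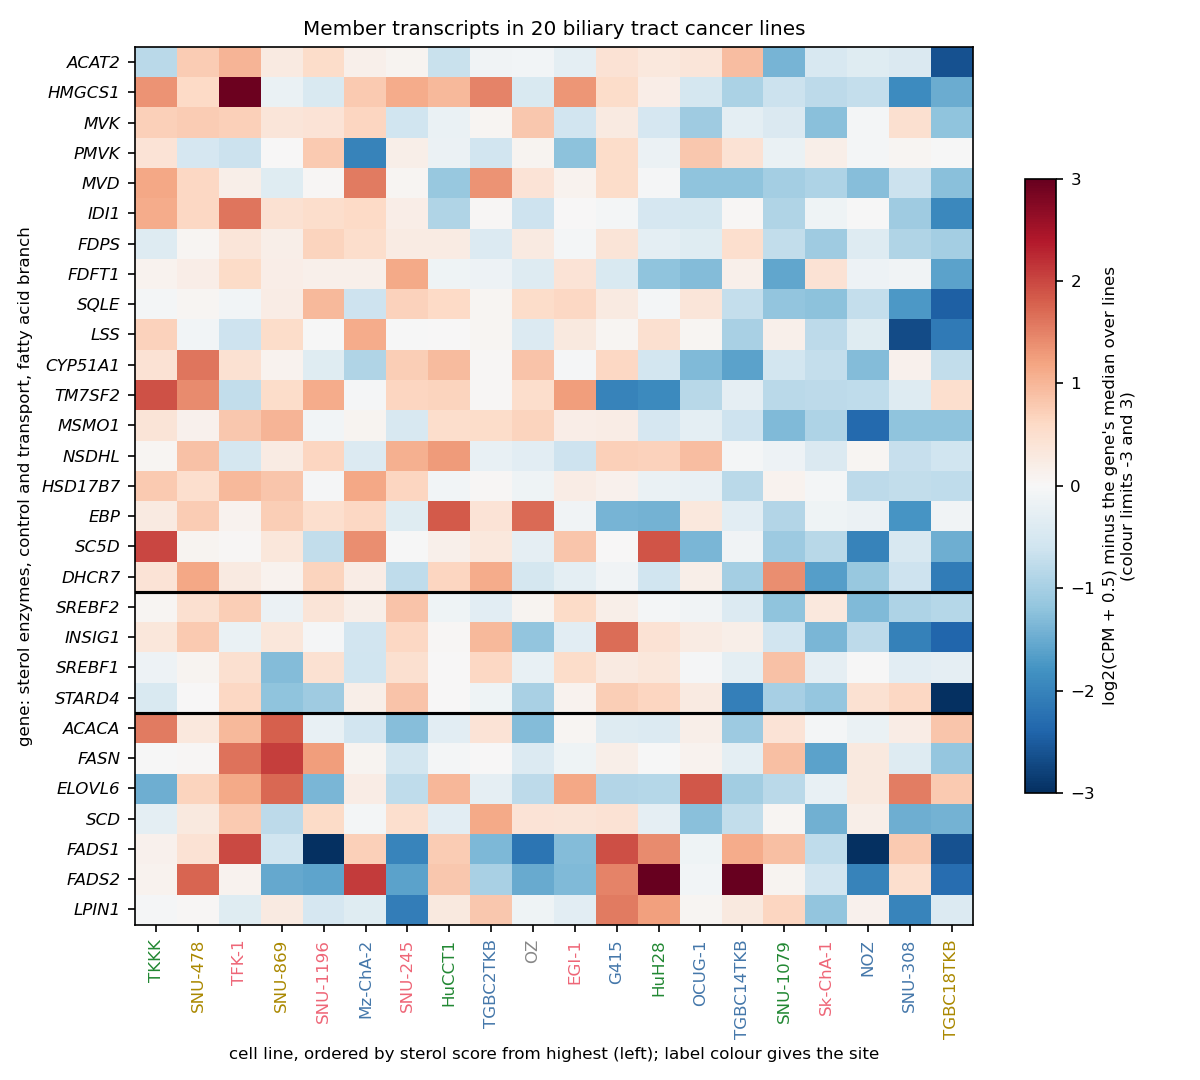
Each cell is log2(CPM + 0.5) of 1 gene in 1 line minus the gene's median over 20 lines, with colours limited at -3 and 3; columns are ordered by the sterol score from highest to lowest and label colours give the site. The sterol rows turn from mostly red in TKKK to mostly blue in TGBC18TKB, and the colour limits are passed by FADS1 in NOZ and SNU-1196, FADS2 in HuH28 and TGBC14TKB, and STARD4 in TGBC18TKB.

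Levels can be set against each other only per length. Median CPM per kilobase of the longest annotated coding transcript was highest for SCD (250), FDPS (137) and FDFT1 (84.8), and lowest for FADS2 (5.27), STARD4 (5.58) and ELOVL6 (7.84). The median range from lowest to highest line was 10.6-fold over the 18 sterol enzymes and 12.8-fold over the 7 fatty acid genes, where it was 6.4-fold over all 11548 genes with a median of at least 5 CPM.

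The sterol enzymes were correlated with each other across the lines, and the fatty acid genes less so. Over the 153 pairs of sterol enzymes the median r of log2 CPM was 0.37 and 25.5% of pairs were above 0.5. Over the 21 pairs of fatty acid genes the median r was 0.12, the same as over the 126 pairs between the branches, and 1 pair (4.76%), FADS1 with FADS2, was above 0.5. Over all pairs of the 11548 genes the median was 0.00, with 3.02% above 0.5. All pairs share the same 20 libraries and their scaling, and these correlations are descriptions with no test.

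**Figure D3:**
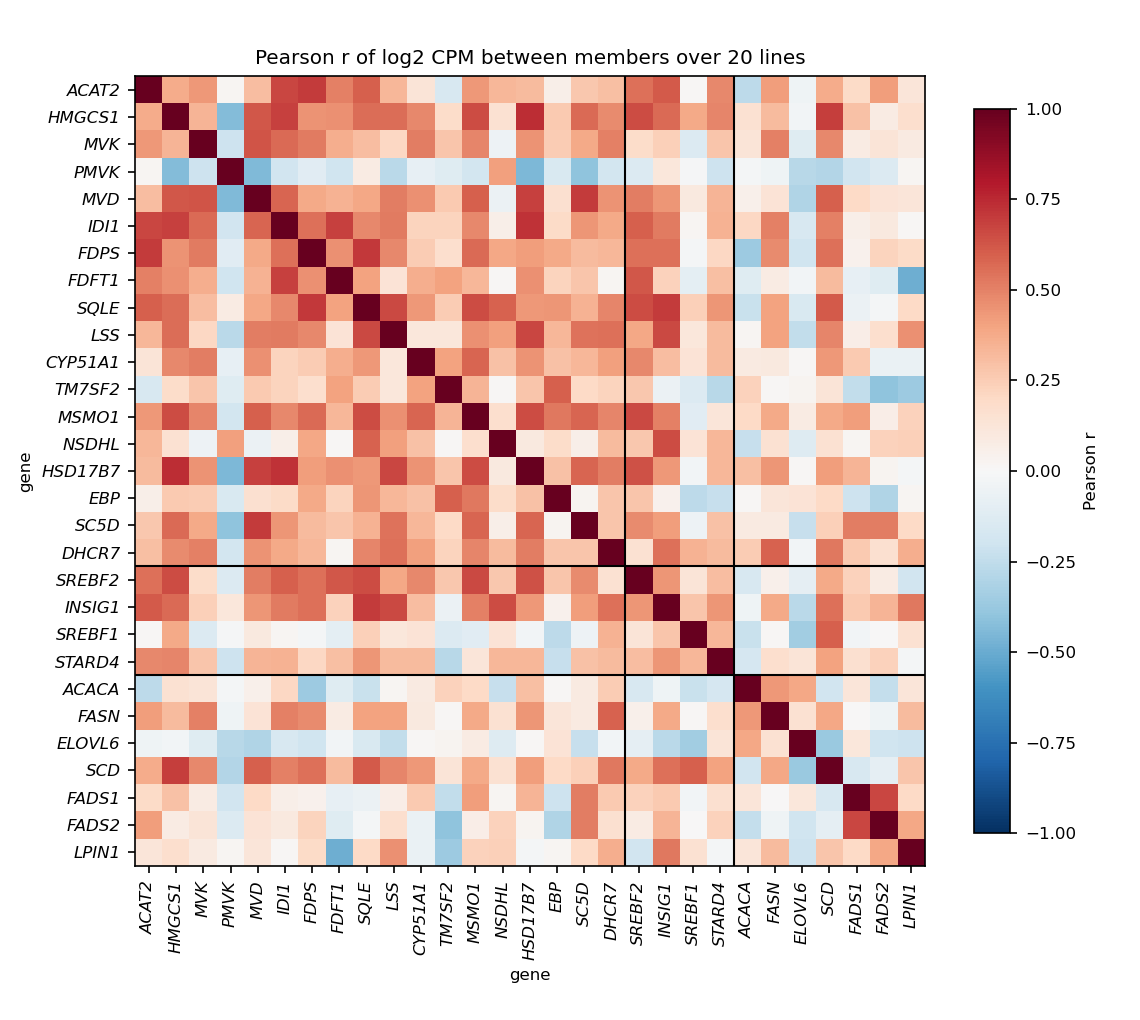
Pearson r of log2 CPM between each pair of the 29 genes over 20 lines, from -1 (blue) to 1 (red), with black lines between sterol enzymes, control genes and fatty acid genes. The sterol block is mostly red (median r 0.37) except for the PMVK row, and the fatty acid block is pale (median r 0.12) apart from FADS1 with FADS2 (0.67).

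Each sterol enzyme was also set against the mean of the other 17. In 17 of 18 r was above 0, in 14 it was at least 0.5, and the median was 0.58. The highest were MSMO1 (0.79), SQLE (0.77) and HSD17B7 (0.75). SQLE rested more on the low lines, with rho = 0.50 and r = 0.58 without SNU-308 and TGBC18TKB, whereas MSMO1 was at 0.81 without its 2 outermost lines. The lowest were PMVK (-0.28), NSDHL (0.31) and TM7SF2 (0.35). PMVK was the one sterol enzyme with a negative value, which was -0.15 without EGI-1 and Mz-ChA-2. The closest pair was HMGCS1 with HSD17B7 (r = 0.74, rho = 0.74), and the 7 steps to farnesyl diphosphate correlated as a mean with the 11 later steps at r = 0.76 (rho = 0.70).

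SREBF2 followed the sterol enzymes and SREBF1 did not. The r with the mean of the 18 enzymes was 0.72 for SREBF2 (rho = 0.59), 0.68 for INSIG1 (rho = 0.54), 0.38 for STARD4 (rho = 0.05) and 0.07 for SREBF1 (rho = 0.16). Without SNU-308 and TGBC18TKB these r were 0.64, 0.42, 0.19 and -0.10. Of the 18 sterol enzymes 16 had a higher r with SREBF2 than with SREBF1, as did 5 of the 7 fatty acid genes, and the difference itself was not tested. With the mean of the 7 fatty acid genes r was 0.00 for SREBF1 and 0.14 for SREBF2. Without FADS1 and FADS2 it was 0.02 for SREBF1 (rho = 0.41) and -0.03 for SREBF2 (rho = -0.03), and without SNU-869 and Sk-ChA-1 as well it was 0.45 and 0.07.

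Within the fatty acid branch, only FADS1 reached an r of 0.5 with the mean of the other 6 genes (0.51), followed by FADS2 (0.42) and LPIN1 (0.37). SCD (-0.11), ELOVL6 (-0.02) and ACACA (0.13) were lowest. SCD instead followed the sterol enzymes (r = 0.64, rho = 0.47), HMGCS1 among them (r = 0.69, rho = 0.65), and SREBF1 (r = 0.60, rho = 0.73). It was 1 of 2 fatty acid genes closer to the sterol mean than to the mean of the other 6. The other was FASN (0.45 against 0.22), whose closest member was DHCR7 (r = 0.59, rho = 0.58). FADS1 and FADS2 varied most over the lines and so weigh most in a mean of the branch. FASN had r = 0.00 and -0.04 with them, against 0.43 with ACACA, 0.39 with SCD, 0.32 with LPIN1 and 0.15 with ELOVL6. The r with the branch are not given without FADS1 and FADS2.

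The lines were ranked by a score for each branch, the mean over its genes of log2 CPM minus each gene's mean over 20 lines. The sterol score was highest in TKKK (0.67), SNU-478 (0.62) and TFK-1 (0.49), and lowest in TGBC18TKB (-1.16), SNU-308 (-0.75), NOZ (-0.63) and Sk-ChA-1 (-0.57). As a geometric mean, the sterol enzymes stood at 1.59 times their 20-line mean in TKKK and at 0.446 times in TGBC18TKB. TGBC18TKB was the lowest line for 8 of the 29 members and for 5 of 18 sterol enzymes, and for 3.79% of the 11548 genes. It was above the median for 1 sterol enzyme, TM7SF2, whereas SNU-478 and SNU-869 were above it for 16 each. All 3 are ampullary lines, so the lowest score and 2 of the 4 highest fell within 1 site.

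The fatty acid score was highest in TFK-1 (1.01), HuH28 (0.91) and G415 (0.73), and lowest in NOZ (-1.33), SNU-1196 (-1.06) and SNU-245 (-1.01). The rank of NOZ rested on the FADS genes. Without FADS1 and FADS2, a choice made after the values were seen, NOZ scored 0.14 and had rank 9 from the top. SNU-869 (1.02) and TFK-1 (0.84) then led, and Sk-ChA-1 (-0.90) and SNU-245 (-0.84) were lowest. TFK-1 was thus near the top and SNU-245 and Sk-ChA-1 near the bottom either way, while HuH28 dropped to -0.06.

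The scores of the branches were weakly related over the 20 lines, at r = 0.33 and rho = 0.36, and at r = 0.24 without SNU-308 and TGBC18TKB. Without FADS1 and FADS2 r was 0.37. The supplying repository is the only grouping in the labels that could stand for a batch. With FADS1 and FADS2 included, r was -0.16 (rho = 0.49) within the 6 lines from KCLB. Within the 6 from RIKEN it was 0.68 (rho = 0.26). The relation with these genes in the score thus did not hold in KCLB lines on the Pearson scale. SNU-1196, a KCLB line, had a fatty acid score of -1.06 with them and -0.05 without. The r within repositories is not given without FADS1 and FADS2. The other repositories gave too few lines. The difference of the scores was largest in SNU-1196 (1.44), SNU-245 (1.34) and OZ (0.97), where sterol enzymes were high relative to fatty acid genes, and lowest in HuH28 (-1.08), SNU-1079 (-0.97) and SNU-308 (-0.74). Both ends rested partly on FADS1 and FADS2. Without them the difference was 0.43 in SNU-1196 and -0.11 in HuH28, while SNU-245 (1.17) was highest, followed by TKKK (0.71) and OZ (0.66), and TGBC18TKB (-0.90) was lowest, followed by SNU-1079 (-0.79) and NOZ (-0.77).

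**Figure D4:**
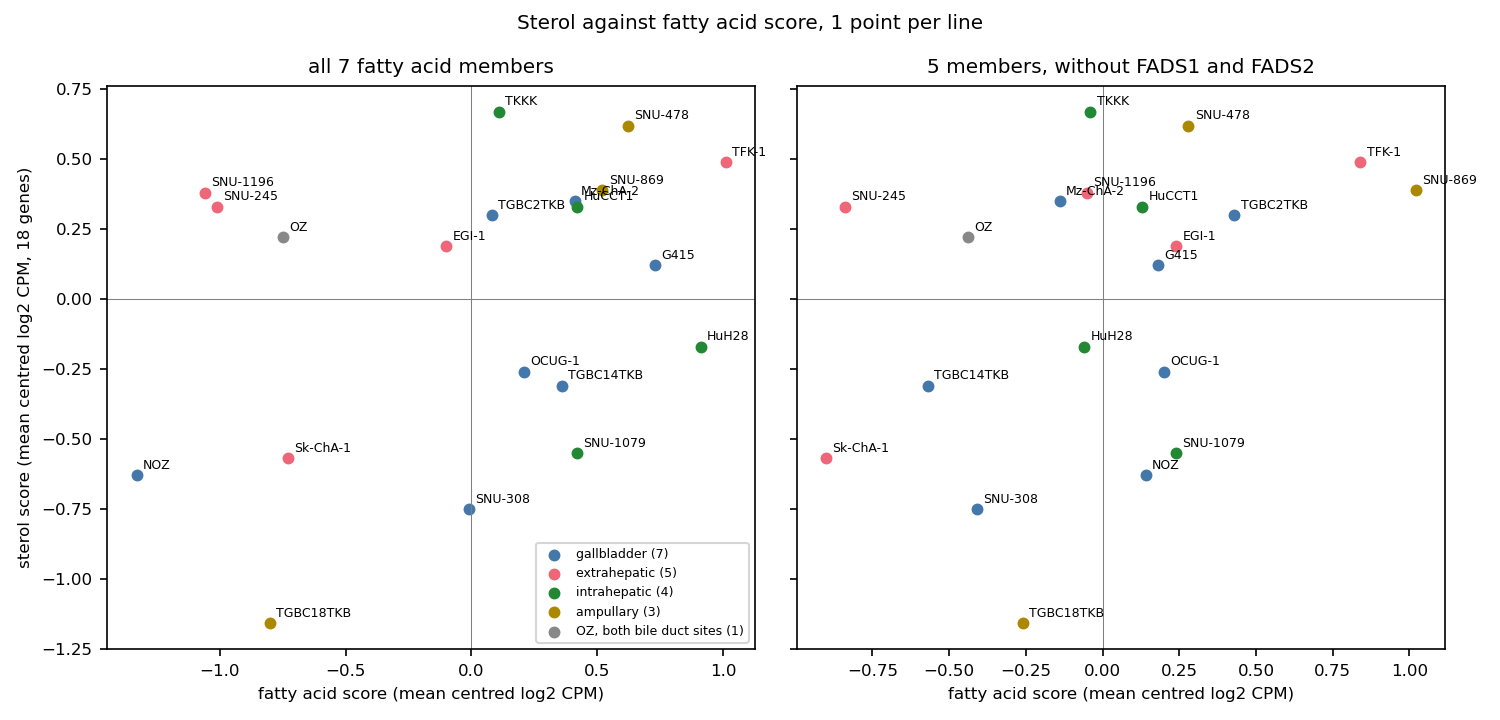
Sterol score (18 genes) against fatty acid score, 1 point per line coloured by site, with all 7 fatty acid genes on the left and without FADS1 and FADS2 on the right; both axes are mean centred log2 CPM. TGBC18TKB lies lowest on the sterol axis at -1.16 in both panels, while NOZ moves from -1.33 to 0.14 on the fatty acid axis.

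Other measures of the libraries were set against the scores. The r of the sterol score was -0.15 with total counts, 0.09 with the TMM factor, -0.17 with the mean of 16 cell cycle genes and 0.21 with a score of 10 epithelial minus 10 mesenchymal genes. Without SNU-308 and TGBC18TKB these were larger, at -0.35, 0.28, -0.43 and 0.45. The fatty acid score had r = 0.34 with total counts, 0.12 with the cell cycle genes and -0.38 with the epithelial minus mesenchymal score, and 0.55, 0.44 and -0.43 without NOZ and SNU-1196. The difference of the branches had r = 0.51 (rho = 0.48) with the epithelial minus mesenchymal score and -0.44 with total counts (rho = -0.46), the first being 0.39 and the second -0.38 without SNU-1196 and SNU-245. With FADS1 and FADS2 left out of the fatty acid score they were 0.32 and -0.32. HuH28 was lowest in the difference with FADS1 and FADS2 included (-1.08) but not without them (-0.11), and was also the line with the fewest biliary transcripts. The part of either measure in the difference of the branches was not tested.

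Of genes outside the members and the gene lists used here, those most like the sterol score over 20 lines were ZNF780A (r = 0.72), 1 entry without a symbol (0.71), PCYT2 (0.68), IDI2-AS1 (0.64), RDH13 (0.62), FURIN (0.62) and GTPBP6 (0.61). PCYT2 makes CDP-ethanolamine for phospholipid synthesis, and IDI2-AS1 overlaps 4.73% of the exon bases of IDI1 on the other strand. Of 11427 such genes 2 were above 0.7 and 2 below -0.7, with a median of -0.01. Most like the fatty acid score were MIGA1 (0.83), CANX (0.82), STAT3 (0.80), BEX3 (0.75), SCAMP3 (0.75), SEC61A1 (0.74) and MFAP3 (0.74). CANX and SEC61A1 are chaperone and translocon components of the endoplasmic reticulum.

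At the ends of the difference between branches stood PPP1R16A (0.82), CHCHD7 (0.80), POLR1D (0.79) and CDC42EP5 (0.78) on the sterol side, with RPL18, ETFRF1 and RBIS (each 0.77) and RPL31 (0.76). On the fatty acid side were MAN1A2 (-0.81), NFIC (-0.80), XPR1, CAMSAP2, MFAP3 and FERMT2 (each -0.79), PLS3 (-0.78) and TP53BP1 (-0.77). MFAP3 had also been among those most like the fatty acid score. The difference used here includes FADS1 and FADS2, on which both of its ends partly rested.

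Other genes of the same pathways were set against the scores in the same way. Among 9 other SREBP machinery genes the highest r with the sterol score was that of INSIG2 (0.10), and SCAP, the escort, was at 0.08. Among other sterol genes ERG28 (0.58), a scaffold of the demethylation complex, OSBP (0.45) and TMEM97 (0.42) were highest. ACSS2 and SLC25A1 (0.50 each), which supply cytosolic acetyl-CoA and citrate, and HSD17B12 (0.48) were the other fatty acid genes most like the sterol score. With the fatty acid score SOAT1 reached an r of 0.60, DHDDS 0.50 and ELOVL5 0.46. With the difference of the branches, NR1H3, the liver X receptor alpha, was highest at 0.71, and DGAT1 (0.64) and AGPAT2 (0.62), which act in triglyceride synthesis, followed. FADS1 and FADS2 are part of the fatty acid score and of the difference in these r.

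No member reached a Benjamini-Hochberg adjusted p under 0.05 in edgeR's quasi-likelihood test of any difference among the 4 sites, in which 0.00602% of 16615 genes did. The smallest adjusted p among members was 0.44 (edgeR), for FADS2. At an unadjusted p under 0.05 there were 2 members of 29, FADS2 and SREBF2, where 10.7% of all genes were past it. FDFT1 followed them, and the values of these genes by site are in the plot of members by site.

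**Figure D5:**
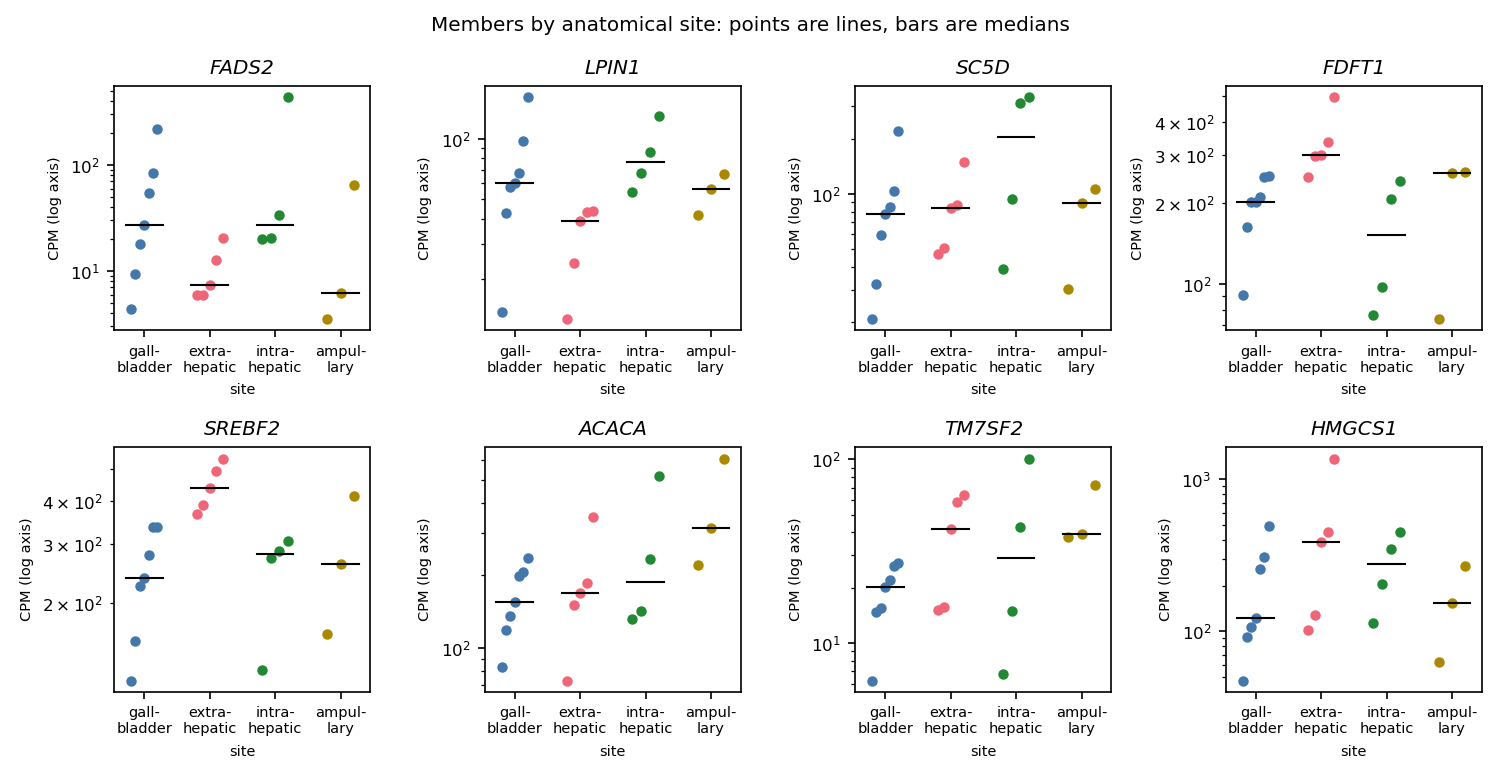
CPM on log axes of 8 members in the lines of each site; points are lines (7 gallbladder, 5 extrahepatic, 4 intrahepatic, 3 ampullary) and bars are medians. The extrahepatic lines lie at 366 to 535 CPM for SREBF2 and at 5.97 to 20.5 CPM for FADS2, and the intrahepatic lines at 127 to 306 CPM for SREBF2.

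In the extrahepatic lines SREBF2 stood at 439 CPM in EGI-1, 366 in Sk-ChA-1, 390 in SNU-1196, 535 in SNU-245 and 493 in TFK-1. The mean was 445 ± 70.1 CPM (SD, n = 5), against 240 ± 83.4 CPM (n = 7) in gallbladder, 247 ± 81.7 CPM (n = 4) in intrahepatic and 279 ± 127 CPM (n = 3) in ampullary lines. All 5 extrahepatic lines were above every line of the other sites except SNU-478 (414 CPM). The log2 difference from the mean of the other sites was 0.80 (SE 0.27), with an adjusted p of 0.544 in edgeR. FDFT1 was at 299, 302, 250, 494 and 335 CPM in the same lines, in the same order. Its log2 difference was 0.89 (SE 0.31, adjusted p = 0.55), and the highest lines elsewhere, SNU-869 and SNU-478, were at 260 and 259 CPM. LPIN1 was at 12.6 to 43.9 CPM, with a log2 difference of -1.10 (SE 0.43, adjusted p = 0.62).

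No member was called in the extrahepatic contrast (edgeR, 0% of 16615 genes called). At an unadjusted p under 0.05 there were 5 of 29 (17.2%), where 7.01% of all genes were past it: SREBF2, FDFT1 and HMGCS1 with positive differences (HMGCS1 1.20, SE 0.57), LPIN1 and FADS2 with negative ones. The median log2 difference of the 29 members was 0.04 and that of all genes -0.02. Of the LXR genes, which encode sterol-sensing receptors and their targets, 3 of 5 were past that mark and 0 of 5 were called. NR1H3 had a log2 difference of 1.85 (SE 0.57, edgeR adjusted p = 0.489) and ABCG1, a sterol exporter, 2.33 (SE 0.79, adjusted p = 0.544).

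FADS2 had the smallest p of the members between the bile duct sites. It was at 33.6 CPM in HuCCT1, 437 in HuH28, 20.1 in SNU-1079 and 20.5 in TKKK among the intrahepatic lines, and at 7.33 in EGI-1, 12.6 in Sk-ChA-1, 6.0 in SNU-1196, 5.97 in SNU-245 and 20.5 in TFK-1 among the extrahepatic ones. The groups touched at TFK-1, which equalled TKKK to 3 digits and was above SNU-1079. The log2 difference of intrahepatic from extrahepatic lines was 3.63 (SE 1.20, edgeR adjusted p = 0.411), and DESeq2 put it at 3.65 with an adjusted p of 0.0355. That was the one member called under any alternative in any comparison. In the same contrast DESeq2 called 298 of the 16615 genes, and edgeR called 0. The edgeR difference was 1.24 without HuH28. Against the mean of the other sites, intrahepatic FADS2 had a log2 difference of 2.39 (SE 0.87, edgeR adjusted p = 0.335), and of 0.00 once HuH28 was left out.

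Markers of other cell states were set beside the comparison of the bile duct sites. Of 6 fibroblast markers, 6 had a positive intrahepatic difference from extrahepatic lines, with a median log2 of 5.03, and of 10 mesenchymal genes 9 did, with a median of 3.98, where that of all genes was 0.03. COL1A1 and COL3A1 are in both lists. None of these genes was called in edgeR, where 0% of all genes were. An unadjusted p under 0.05 was reached by 3 fibroblast markers and 4 mesenchymal genes, where 9.4% of all genes reached it. The summed fibroblast markers ran from 3.15 CPM in TKKK to 8770 CPM in HuH28 among intrahepatic lines (next 4100 CPM), and from 6.17 to 97.5 CPM among extrahepatic ones. Of 10 epithelial genes 0 had a positive difference, with a median of -1.10. The part of these in the site differences of FADS2, LPIN1 and FDFT1 was not tested.

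In the same comparison LPIN1 had a log2 difference of 1.41 (SE 0.52, edgeR adjusted p = 0.422). It was at 54.1 to 130 CPM in the 4 intrahepatic lines and at 12.6 to 43.9 CPM in the 5 extrahepatic ones. FDFT1 had -1.09 (SE 0.42, edgeR adjusted p = 0.44), with intrahepatic lines at 76.4 to 241 CPM and extrahepatic lines at 250 to 494 CPM. The share of all genes whose ranges part these sites was not counted. No member was called in edgeR, where 0% of all genes were, and 4 of 29 had an unadjusted p under 0.05, where 9.4% of all genes did. Against the mean of the other sites, the intrahepatic lines also had SC5D at 1.30 (SE 0.53, adjusted p = 0.428) and LPIN1 at 0.78 (SE 0.42, adjusted p = 0.594), which was 0.47 without HuH28. SC5D was high in TKKK and HuH28 and not in HuCCT1 (93.5 CPM) or SNU-1079 (38.9 CPM). Members with an unadjusted p under 0.05 were 2 of 29 (9.47% of all genes), and 0 were called (0% of all genes).

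In gallbladder lines TM7SF2 stood at 6.23 to 27.1 CPM with a mean of 18.8 ± 7.32 CPM (SD, n = 7), against 49.8 ± 19.4 CPM (n = 3) in ampullary, 39.0 ± 23.0 CPM (n = 5) in extrahepatic and 41.5 ± 42.7 CPM (n = 4) in intrahepatic lines. Of the intrahepatic lines, HuH28 (6.76 CPM) and SNU-1079 (15 CPM) lay within the gallbladder range. The log2 difference from the other sites was -1.20 (SE 0.48, edgeR adjusted p = 0.324). ACACA was at -0.69 (SE 0.35, adjusted p = 0.438) and CYP51A1 at -0.71 (SE 0.40, adjusted p = 0.491), the latter being -0.41 without SNU-478. TM7SF2 was the one member of 29 with an unadjusted p under 0.05, where 12.3% of all genes were past it, and 0 were called (0% of all genes). Of the 18 sterol enzymes 5 had a positive difference, and their median was -0.26, where that of all genes was 0.11. INSIG2, a second retention protein outside the 29, had -1.29 (SE 0.41, adjusted p = 0.248).

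Ampullary lines had ACACA at 221 CPM in SNU-478, 611 in SNU-869 and 313 in TGBC18TKB. All were above the gallbladder, extrahepatic and intrahepatic medians of 155, 169 and 188 CPM. The sites overlapped, since TGBC2TKB (237 CPM), SNU-1079 (234), TFK-1 (349) and TKKK (519) were above SNU-478. The log2 difference of ACACA from the other sites was 0.92 (SE 0.42, edgeR adjusted p = 0.923). SREBF1 was at -0.65 (SE 0.33, adjusted p = 0.923), with 237, 91.0 and 185 CPM in SNU-478, SNU-869 and TGBC18TKB. STARD4 was at -1.09 (SE 0.63, adjusted p = 0.923), with 25.7, 10.9 and 2.61 CPM in the same order. Single lines moved all 3 values: without SNU-869 ACACA was at 0.43 and SREBF1 at -0.32, and STARD4 was at -2.0 without SNU-478 and -0.60 without TGBC18TKB. ACACA was the one member with an unadjusted p under 0.05, where 5.25% of all genes were past it, and 0 members were called, where 0.00602% of all genes were.

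No member passed the threshold between lines of metastatic and of primary origin (edgeR, 0 of 29 members, 0% of 14843 genes called). ACACA was at 71.9 to 199 CPM (median 142) in 7 metastatic lines and 73.0 to 611 CPM (median 221) in 13 primary lines, so the groups overlapped. Its log2 difference was -0.86 (SE 0.37, adjusted p = 0.581), the one member with an unadjusted p under 0.05, where 7.73% of all genes were past it. The ampullary lines, at 221 to 611 CPM for ACACA, were all primary, and the gallbladder lines G415, Mz-ChA-2, NOZ and OCUG-1 metastatic. The site and origin comparisons of ACACA therefore rest partly on the same lines. EBP was at 0.75 (SE 0.39, adjusted p = 0.67; 0.45 without HuCCT1), from 30.9 to 295 CPM in metastatic and 23.5 to 138 CPM in primary lines, and TM7SF2 at -0.83 (SE 0.47, adjusted p = 0.694). Of the other fatty acid genes, ACSL1, an acyl-CoA synthetase, had -2.55 (SE 0.79, adjusted p = 0.454) and ACSS2 -0.90 (SE 0.35, adjusted p = 0.545).

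The genes of the same pathways outside the members numbered 60 in the site fit, and 0 of them were called in any site comparison or by origin in edgeR. By list these were 9 of SREBP machinery, 12 of sterol handling, 25 of fatty acid and glyceride synthesis, 9 of isoprenoid use and 5 of the LXR system.

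By score the sites overlapped throughout. The sterol score averaged 0.16 ± 0.42 (SD, n = 5) in extrahepatic, 0.07 ± 0.54 (n = 4) in intrahepatic, -0.05 ± 0.97 (n = 3) in ampullary and -0.17 ± 0.44 (n = 7) in gallbladder lines. The fatty acid score averaged 0.46 ± 0.33 in intrahepatic, 0.11 ± 0.79 in ampullary, 0.06 ± 0.66 in gallbladder and -0.38 ± 0.86 in extrahepatic lines. The 4 intrahepatic lines were all above 0, from 0.11 to 0.91, and the extrahepatic lines ran from -1.06 to 1.01, with TFK-1 at the top. These differences rested largely on FADS1 and FADS2. Without them the fatty acid score averaged 0.07 ± 0.15 in intrahepatic lines, of which TKKK (-0.04) and HuH28 (-0.06) were below 0, and -0.14 ± 0.74 in extrahepatic, 0.34 ± 0.65 in ampullary and -0.02 ± 0.36 in gallbladder lines. By origin the sterol score was 0.03 ± 0.57 in 13 primary and -0.06 ± 0.42 in 7 metastatic lines.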

How the data were processed

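RNA from 20 lines was sequenced with a stranded poly(A) kit, per the labels' protocols. The authors deposited raw counts of reads per gene, whole numbers with no normalization; Trimmomatic, TopHat2 2.0.8, Picard 1.69, featureCounts and the GRCh37 (hg19) build are named in the submitters' processing notes. Neither a strand setting nor an annotation release is given in the sources used here. Of 24222 RefSeq entries, 23508 took a symbol from a RefSeq gene table and 358 from GENCODE metadata; 356 had none and held 0.488% of counts. Each sample column of the table was used.

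Total counts were 10469013 to 15414668 per line. Sites (19 lines) and origin (20 lines) were tested by the quasi-likelihood F test of edgeR 4.0.16 (robust, two-sided; R 4.3.3) after TMM scaling and its default count filter, over 16615 and 14843 genes, with Benjamini-Hochberg adjustment over all of them at 0.05. Each site was set against the unweighted mean of the other 3. The script was tested on simulated data. At a true log2 change of 1 the gallbladder contrast called 3% of changed genes, and at a change of 3 it called 49%. The origin contrast called 5% and 76%, so a lack of calls says little about small differences. CPM use TMM library sizes, and log2 CPM a prior count of 2. Scores and correlations have no test. Intervals and the floor of 3 counts for a count of 0 cover counting error only. p-values measure the spread between lines. Replicate numbers follow accession order and pair nothing.

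Alternatives were DESeq2 1.42.0, limma-voom (limma 3.58.1), RLE scaling, other filters, non-robust dispersion, repository or origin as covariate, primary lines only, OZ in either bile duct site, other scores and each line left out. The members, gene lists and comparisons were chosen with earlier results of these data known. All 29 members are reported, most fully the 3 widest and 2 narrowest of each branch and the 3 most and least correlated with it. In each comparison the 3 members of smallest p are named. Of the other genes, the 8 most like each score with a median of at least 5 CPM are named, and some that met this rule are not reported here. Promoters are from RefSeq (GRCh38.p14), and gene lengths and exon overlaps from GENCODE v29.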

Additional observations from a re-analysis of the deposited data

Results flagged for a closer look

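In groups of 4 to 10 lines, the lowest or highest value was set against its nearest neighbour. Of 124 groups tested (29 genes and the scores, by site and by origin), 18 had a line far from the rest, and chance gives about 1 in 20. The groups share lines and the scores are made of the genes, so the 18 are not independent. Setting them against that rate is no test. The gap was measured on log2 CPM, or on the score.

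NOZ stood low among gallbladder lines for FADS1 (0.157 CPM, next 50.6) and for the fatty acid score (-1.33, next -0.01). Among metastatic lines it stood low for FADS1 (0.157 CPM, next 27.9) and for SREBF2 (118 CPM, next 272). HuH28 stood high among intrahepatic lines for FADS2 (437 CPM, next 33.6).

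Sk-ChA-1 stood low among extrahepatic lines for MVD (31.9 CPM, next 62.4), SREBF1 (187 CPM, next 309), SCD (489 CPM, next 1760) and the sterol score (-0.57, next 0.19). It was also low among metastatic lines for FASN (162 CPM, next 372).

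SNU-1079 stood apart among intrahepatic lines, low for SREBF2 (127 CPM, next 272) and high for FASN (915 CPM, next 492) and SCD (1400 CPM, next 1110). TKKK stood high there for PMVK (38.4 CPM, next 25.3), and Mz-ChA-2 low among metastatic lines for the same gene (6.77 CPM, next 25.3).

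Among gallbladder lines OCUG-1 was low for FDFT1 (90.8 CPM, next 163), G415 for TM7SF2 (6.23 CPM, next 14.7) and TGBC14TKB for STARD4 (5.81 CPM, next 23.5). Each is a single library, so no value has a repeat within its line.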

How the results depend on the processing

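Of 534 values of named members under the alternatives, 532 kept their direction and their side of the threshold. Intrahepatic FADS2 against the other sites was 0.00 without HuH28 (3.15 without SNU-478), and FADS2 between bile duct sites was 3.65 with DESeq2 (adjusted p = 0.0355), the 1 member called. Without one line its second value ran from 1.24 to 4.01, and ampullary ACACA from 0.43 (without SNU-869) to 1.22.

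Counts over all genes depended on the tool, and the cause was not tested. DESeq2 called 297 genes among sites, 382 for gallbladder, 133 for ampullary, 264 for intrahepatic, 182 for extrahepatic, 298 between the bile duct sites and 181 by origin. These are counts out of 16615 genes for the sites and 14843 by origin. limma-voom called 0 among sites, 8 for ampullary and 3 for intrahepatic. With repository as covariate 0 were called among sites and 0 for ampullary. With origin as covariate 0 were called among sites, 4 for gallbladder and 0 for ampullary, and in primary lines 0 among sites. With OZ as extrahepatic 2, or as intrahepatic 4, were called for ampullary. With each line left out in turn the counts ran from 0 to 2 among sites, 0 to 3 for gallbladder (3 without HuH28), 1 to 11 for ampullary (11 without SNU-869), 0 to 7 for intrahepatic (7 without HuCCT1) and 0 to 1 for the other 3 comparisons, with 0 members called throughout.

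The fatty acid score of NOZ was 0.19 as a median over genes (rank 14 from the lowest), -0.47 from z scores (rank 5) and 0.14 without FADS1 and FADS2 (rank 12), the last added after seeing the data, which also put TFK-1 at rank 2 from the highest. TKKK had rank 2 with INSIG1 and STARD4 in the sterol list. With FADS1 and FADS2 included, the r of the scores was -0.16 within KCLB and 0.68 within RIKEN lines, and 0.23 to 0.42 with a line left out.

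No paired analysis was possible because the replicate numbers follow accession order only and pair no lines. With 1 library per line the culture error is unknown, and 3 to 7 lines a site limit the differences that can be called.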

Other observations

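Lines differed in how many members they led. TFK-1 was highest for 4 of the 29 members (ACAT2, HMGCS1, IDI1 and FADS1) and for 6.64% of the genes with a median of at least 5 CPM. SNU-869 was highest for ACACA, FASN and MSMO1, and lowest for SREBF1. SNU-308 was lowest for 5 members (HMGCS1, LSS, NSDHL, EBP and SCD) and for 4.27% of those genes. NOZ was also lowest for 5 members (MVD, MSMO1, SC5D, SREBF2 and FADS1) and for 3.96% of those genes. These counts describe single libraries and have no test.

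Another gene beside FADS1 and FADS2, MYRF, which encodes a membrane-bound transcription factor, ran from 4.27 CPM in TGBC14TKB to 853 CPM in TKKK. Its lowest lines after TGBC14TKB were SNU-308 (22.5 CPM) and HuH28 (32.1 CPM), and it was at 37.1 CPM in NOZ and 202 CPM in SNU-1196, the lines lowest in FADS1.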
